A study of Mus musculus with 24 samples.

Results

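The Hox cluster genes of a mouse ovarian cancer cell line were followed across 4 drug treatments. Members were the rows of the count table whose symbol is Hoxa, Hoxb, Hoxc or Hoxd followed by a number, a rule that uses no measured value. Of 25229 gene symbols, 39 met it: 11 of the Hoxa cluster, 10 of Hoxb, 9 of Hoxc and 9 of Hoxd. All 4 groups were the line ID8 P53 KO, mouse ovarian cancer cells in which P53 is knocked out, and all were cultured for 6 days with DMSO (the vehicle), AU-15330 at 2.5 uM, cisplatin at 750 nM, or both drugs together (the combination). AU-15330 is a PROTAC, a molecule that sends SMARCA4 and its paralog SMARCA2, the ATPases of the SWI/SNF chromatin remodeller, to degradation. Cisplatin crosslinks DNA, and the study used it to make these cells senescent. The dose of cisplatin is the one in the sample labels, and the study's methods give another concentration for this line. Each group held 6 libraries of polyadenylated RNA, and nothing in the labels says whether they came from separate cultures, so p-values measure the spread between these libraries, which may be technical. A single cultured line carried every treatment, and no library with intact P53 was included.

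Hox genes encode homeodomain transcription factors that give body segments and organ regions their identity along the head-to-tail axis. Genes with the same number in different clusters are paralogs, and their order along the chromosome follows the order in which they act, with low numbers (anterior) toward the head and high numbers (posterior) toward the tail. Polycomb complexes keep Hox clusters silent, trithorax proteins of the MLL family keep them active, and SWI/SNF can oppose Polycomb. In the female tract Hoxa9, Hoxa10, Hoxa11 and Hoxa13 pattern the oviduct, uterus, cervix and upper vagina in that order.

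The clusters lie on 4 chromosomes of the GRCm38 (mm10) build. Hoxd, in which the highest levels were found, spans chr2:74668310-74765142 on the plus strand (96.8 kb), and Hoxc spans chr15:102921103-103036852 on the plus strand (115.8 kb). Hoxa spans chr6:52155590-52260880 on the minus strand (105.3 kb), and Hoxb, which was almost without reads, spans chr11:96194316-96368256 on the plus strand (173.9 kb). The RefSeq promoter table for GRCm38.p6, which covers 250 bases before and 50 after each start site, held 24 promoters of 22 of the 39 genes. Of these, 6 are shown, limited to the 250 bases before the start site and written 5′ to 3′ with each CpG in capitals. Hoxd8 and Hoxd9 are shown as the 2 most abundant members, Hoxd10 and Hoxa6 as members that rose from low levels with AU-15330, Hoxc4 as the member of Hoxc in the table, and Hoxb8 as a gene of the cluster with the fewest reads, itself with 1 count over all 24 libraries.
Hoxd8 (chr2:74704365-74704614, plus strand): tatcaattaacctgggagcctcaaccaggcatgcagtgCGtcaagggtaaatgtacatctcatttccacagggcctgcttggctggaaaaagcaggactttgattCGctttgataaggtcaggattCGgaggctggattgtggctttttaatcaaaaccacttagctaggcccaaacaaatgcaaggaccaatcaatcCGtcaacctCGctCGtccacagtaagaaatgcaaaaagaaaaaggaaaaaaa
Hoxd9 (chr2:74697513-74697762, plus strand): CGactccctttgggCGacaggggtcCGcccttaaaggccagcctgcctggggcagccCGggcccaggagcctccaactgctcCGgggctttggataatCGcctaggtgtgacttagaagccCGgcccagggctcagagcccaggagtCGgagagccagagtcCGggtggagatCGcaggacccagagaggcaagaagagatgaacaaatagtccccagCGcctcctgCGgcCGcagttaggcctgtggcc
Hoxd10 (chr2:74691641-74691890, plus strand): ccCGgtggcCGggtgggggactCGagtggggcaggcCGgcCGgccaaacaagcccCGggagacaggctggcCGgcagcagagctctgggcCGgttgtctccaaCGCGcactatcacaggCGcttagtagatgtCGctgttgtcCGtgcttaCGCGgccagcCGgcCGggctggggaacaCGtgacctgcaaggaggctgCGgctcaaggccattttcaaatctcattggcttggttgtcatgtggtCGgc
Hoxa6 (chr6:52208673-52208922, minus strand): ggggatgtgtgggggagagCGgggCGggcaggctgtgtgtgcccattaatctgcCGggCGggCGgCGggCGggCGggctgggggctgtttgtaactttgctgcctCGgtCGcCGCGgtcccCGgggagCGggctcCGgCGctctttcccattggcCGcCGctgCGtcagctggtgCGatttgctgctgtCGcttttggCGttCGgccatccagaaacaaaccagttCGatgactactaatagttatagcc
Hoxc4 (chr15:103034145-103034394, plus strand): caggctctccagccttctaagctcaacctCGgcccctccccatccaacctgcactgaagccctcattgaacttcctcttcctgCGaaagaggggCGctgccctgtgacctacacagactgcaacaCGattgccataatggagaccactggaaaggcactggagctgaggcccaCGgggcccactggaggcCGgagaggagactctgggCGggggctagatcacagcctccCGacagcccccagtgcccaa
Hoxb8 (chr11:96281655-96281904, plus strand): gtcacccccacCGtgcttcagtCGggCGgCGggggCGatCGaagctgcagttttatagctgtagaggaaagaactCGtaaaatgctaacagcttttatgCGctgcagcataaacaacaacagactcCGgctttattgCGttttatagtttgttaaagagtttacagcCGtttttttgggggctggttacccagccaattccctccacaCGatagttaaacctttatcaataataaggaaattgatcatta
Hox promoters of this table held a median of 14.5 CpG in 300 bases (4 to 45), against a median of 7 over 32851 promoters of all genes, and 20 of 24 were above that median. The promoters of Hoxd10, Hoxa6 and Hoxc4 held 22, 26 and 9 CpG, that of Hoxb8 held 13, and those of the abundant Hoxd9 and Hoxd8 held 20 and 6. Both strands were searched for 5 motifs. The TATA box TATAAA was in 4 of 24 Hox promoters (13.6% of all promoters), and CCAAT was in 15 (37.4% of all). The paired Hox-Pbx motif TGATNNAT was in 4 (8.85% of all), the AP-1 motif TGANTCA in 1 (7.81% of all), and a retinoic acid response motif of 2 AGGTCA copies spaced by 5 bases in 0 (0.00913% of all). The paired motif was found at Hoxa2, Hoxb1, Hoxb8 and Hoxd11, none of which had enough reads to be tested. These matches describe letters in a window and not binding.

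Levels are given as CPM, a gene's counts scaled to a common library total after edgeR's TMM normalisation. Library totals ran from 17592588 to 25260009 counts, and 3 counts, taken as the floor for counting error in a library, corresponded to 0.120 to 0.186 CPM. Differences are log2 fold changes with standard error (SE) from edgeR's quasi-likelihood test over the 12941 genes that passed its low-count filter, and a gene was called at a Benjamini-Hochberg adjusted p under 0.05. Of the 39 Hox genes, 17 passed the filter, among them Hoxa3, Hoxa5, Hoxa6, Hoxa7, Hoxc4, Hoxc5, Hoxc6, Hoxc8, Hoxc9, Hoxc10, Hoxc13, Hoxd3, Hoxd4, Hoxd8, Hoxd9 and Hoxd10. The filter lets a gene in when 1 group has reads, so Hoxc8, Hoxc9, Hoxc10, Hoxd10, Hoxa3 and Hoxa7, which would not have passed on DMSO libraries alone, had to be high elsewhere to be tested. Within each group, libraries numbered 1 to 3 and those numbered 4 to 6 were more alike within a set of numbers than between sets over all tested genes. Deviations from the group mean, which pull correlations below 0 by construction, had mean correlations of −0.11 to 0.091 within a set and −0.38 to −0.25 between sets, all 9 between-set pairs of each group being below 0. The labels name no batch, so each set alone and the set as a term were run as alternatives, added after the data were seen, and their values are given where they change a result. The label of the cells was checked against markers. Epithelial and mesothelial genes were abundant with DMSO, where Wt1 was at 845 CPM, Krt18 at 646 CPM and Msln at 524 CPM, whereas Epcam, which defines most epithelia, had no more than 2 counts in a library and Cdh1 was at 0.747 CPM. Markers of other cell types were mixed. Of immune markers Ptprc had at most 5 counts while Cd68 was at 11.8 CPM with DMSO, of endothelial markers Kdr had at most 1 count while Pecam1 was at 3.60 CPM, and of fibroblast markers Col1a1 was at 368 CPM and Dcn at 31.5 CPM.

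In DMSO-treated cells Hox expression came mainly from the Hoxd cluster. The summed level of Hoxd ran from 173 to 190 CPM with a median of 183, that of Hoxc from 30.1 to 46.1 (median 34.4), that of Hoxa from 3.43 to 6.36 (median 5.53), and that of Hoxb from 0 to 0.215 (median 0.0915). Hoxd thus held 77.3% to 83.1% of the Hox signal of a library (median 82.0%). Hoxd8 and Hoxd9 together held a median of 52.6%.
Between genes, levels were compared as CPM per kilobase of exon. Hoxd9, a posterior gene of limb and trunk patterning, was highest at 31.0 (25.4 to 36.5 over the 6 libraries), followed by Hoxd8 at 18.6 (15.7 to 20.4), which did not overlap it. Hoxd3 at 12.4 (10.7 to 15.1) lay below Hoxd8. It overlapped Hoxd4 at 10.8 (8.94 to 12.6), which overlapped Hoxc6 at 8.96 (6.77 to 11.2), which in turn overlapped Hoxc13 at 6.22 (4.49 to 8.29). Hoxc4 at 2.46 (2.25 to 2.56) lay below all of these. The remaining 32 genes were at or below 1.12 CPM per kilobase with DMSO.

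**Figure D1:**
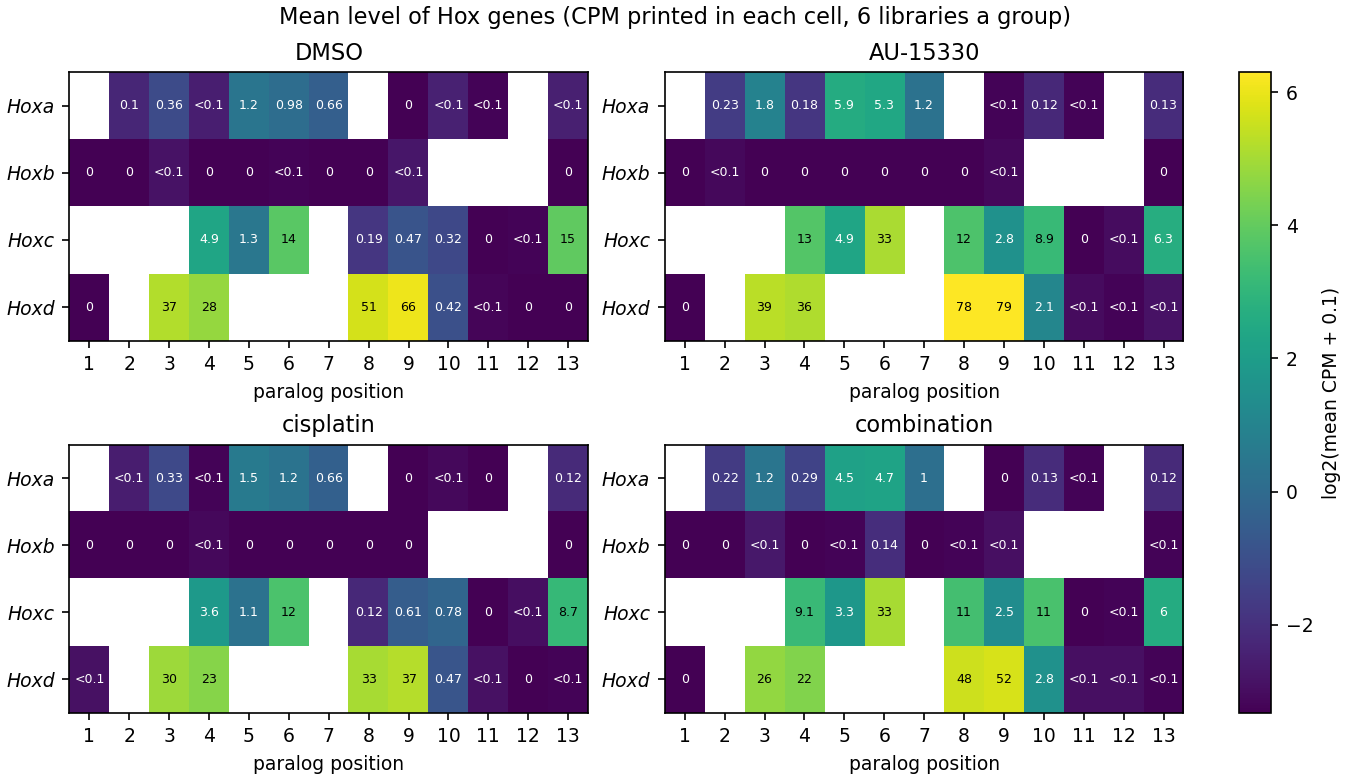
Mean level of Hox genes by cluster (rows) and paralog position (columns) in the 4 treatments, 6 libraries each, with colour giving log2(mean CPM + 0.1), the mean CPM printed in each cell and white marking positions with no gene or with one not reported here. Hoxd3, Hoxd4, Hoxd8 and Hoxd9 are bright in each panel and Hoxb is dark in each. Hoxc8, Hoxc9 and Hoxc10 are brighter with AU-15330 and the combination than with DMSO or cisplatin, with Hoxc9 the least bright of them.

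The 22 untested genes had no more than 13 counts in a library. Some were called when no filter was applied or with DESeq2: both called Hoxa4 lower with cisplatin, and Hoxa4, Hoxa10 and Hoxb6 higher in the combination than with cisplatin, to which the fit with no filter added Hoxb3. Hoxb6 had 0 counts in all 6 libraries with AU-15330 and all 6 with cisplatin, 1 count over those with DMSO, and 18 counts over those with the combination, where 5 of 6 libraries held 2 to 5. Hoxb1, Hoxb7 and Hoxc11 had 0 counts in all 24 libraries, and no other Hoxb gene had more than 5 counts in one. Hoxa4 (13 counts), Hoxa2 (12), Hoxa13 (8) and Hoxa10 (6) had the highest maxima. Of the posterior genes that pattern the female tract, Hoxa9 had 1 count and Hoxa11 had 3 counts over all 24 libraries. The count of genes with at least 3 reads ran from 16 to 20 of 39 in a DMSO library, from 19 to 22 with AU-15330, from 16 to 20 with cisplatin, and from 20 to 22 with the combination.

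The effect of the SMARCA4 and SMARCA2 degrader was asked first; the proteins themselves were not measured in these data. With AU-15330, summed Hoxa and Hoxc levels were above every DMSO library in all 6 libraries, and Hoxc genes that had been near the floor became abundant. Of the 17 tested Hox genes, 14 were higher than with DMSO (36.2% of all tested genes were), 1 was lower (37.2% of all were) and 2 were not called, while 73.4% of all tested genes were called in either direction. The median log2 fold change of the 17 was 1.43, against −0.0030 over all tested genes, whose median size of change in either direction was 0.53. Groups did not overlap for 12 of the 17 (49.9% of all tested genes). Among the 12 were Hoxc8, Hoxc9, Hoxc10, Hoxd10 and Hoxa3, which had to be high outside DMSO to be tested. With the filter set on DMSO libraries alone, an alternative added after the data were seen, 11 Hox genes entered, of which 8 were higher (36.5% of all) and 1 lower (37.2% of all), with a median of 0.66.

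By paralog class, the 9 tested central genes (positions 4 to 8) were higher, against 36.2% of all tested genes. Of the 5 tested posterior genes (positions 9 to 13), 4 were higher and Hoxc13 was lower, and of the 3 tested anterior genes (positions 1 to 3), Hoxa3 was higher and Hoxd3 was not called. By cluster, 4 of 5 tested Hoxa genes, 6 of 7 Hoxc genes and 4 of 5 Hoxd genes were higher. These counts include the 6 genes let in by groups other than DMSO. With the filter on DMSO libraries alone (36.5% of all higher), 7 of 7 central, 1 of 2 posterior and 0 of 2 anterior genes were higher, and by cluster 2 of 3 Hoxa, 3 of 4 Hoxc and 3 of 4 Hoxd genes. The summed Hoxa level was 15.2 to 17.6 CPM (median 16.5), Hoxc 71.6 to 89.9 (median 81.7) and Hoxd 218 to 240 (median 237), each above all 6 DMSO libraries. The share of Hox signal from Hoxc went from a median of 15.4% with DMSO to 24.8% with AU-15330, and the share from Hoxd from 82.0% to 70.3%.

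**Figure D2:**
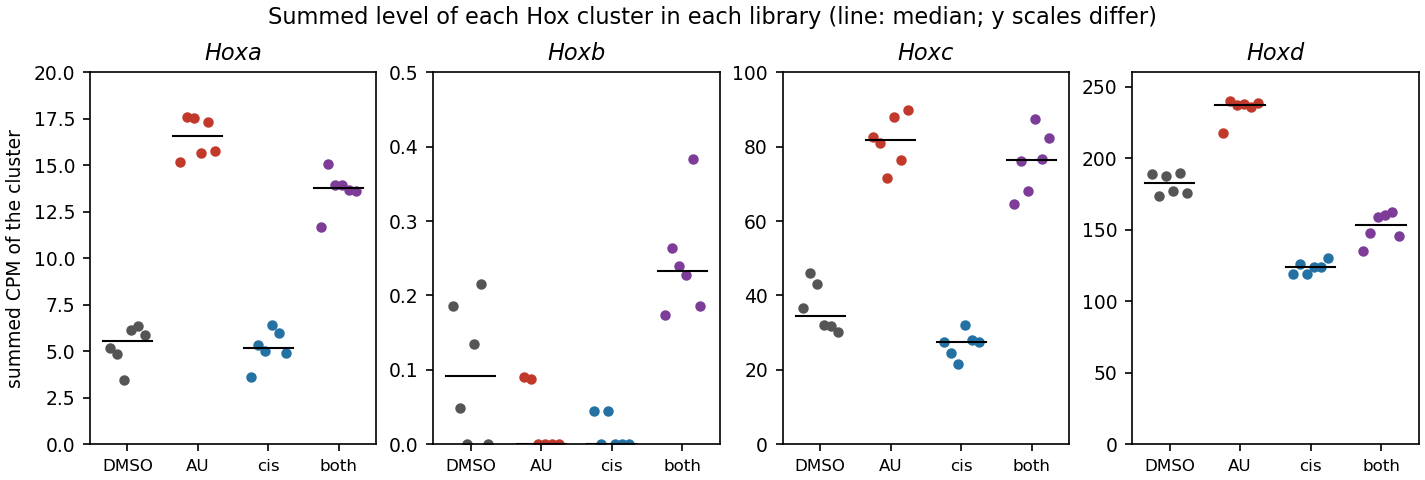
Summed CPM of the genes of each cluster in each library (points), with the median of the 6 libraries as a line, for DMSO, AU-15330 (AU), cisplatin (cis) and the combination (both), on y scales that differ between clusters. For Hoxa and Hoxc the libraries with AU-15330 or the combination lie above all others, for Hoxd those with AU-15330 are highest and those with cisplatin lowest, and Hoxb stays at or below 0.383 CPM.

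Of the tested members, Hoxc8 and Hoxc10 in the middle of Hoxc had the largest fold changes, and Hoxc9 between them rose as well. Hoxc8, a trunk gene of thoracic vertebrae and spinal cord motor neurons, was between 0.0465 and 0.495 CPM with DMSO (median 0.103, 1 to 8 counts a library) and between 11.02 and 13.8 CPM with AU-15330 (median 12.04, 239 to 287 counts). The log2 fold change was 6.07 (SE 0.27, adjusted p = 1.09e-16 from edgeR), and the lowest AU-15330 library lay far above the highest DMSO library. Hoxc10, which acts in lumbar cord and hindlimb, went from 0.134 to 0.866 CPM (median 0.242) to 6.93 to 11.1 CPM (median 8.92). Its log2 fold change was 4.84 (SE 0.25, adjusted p = 2.07e-15 from edgeR), again with separate groups. Hoxc9, which sets the thoracic identity of motor neurons and lies between these 2 genes on the chromosome, was at 0.145 to 0.877 CPM (median 0.366) with DMSO and at 1.89 to 4.10 CPM (median 2.56) with AU-15330. It rose by a log2 fold change of 2.55 (SE 0.30, adjusted p = 2.55e-08 from edgeR), and all 6 AU-15330 libraries exceeded all 6 DMSO libraries. The value for Hoxc9 lay within 1 SE of those for Hoxa6 (2.40), Hoxa3 (2.30) and Hoxd10 (2.28). With replicates 1 to 3 alone the log2 fold change was 5.39 for Hoxc8 and 4.14 for Hoxc10, and with replicates 4 to 6 alone it was 7.17 and 5.68, all of them called. The next gene in the 5′ direction, Hoxc11, had 0 counts throughout.

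On the 3′ side of Hoxc8, genes that were already read with DMSO had smaller fold changes, which does not mean smaller gains in CPM. Hoxc6, a thoracic and mammary gene, was at 10.7 to 17.7 CPM (median 13.6) with DMSO and 26.9 to 38.7 CPM (median 33.6) with AU-15330, a log2 fold change of 1.23 (SE 0.13, adjusted p = 4.94e-09 from edgeR). Hoxc5, a cervical gene, was at 0.969 to 1.70 CPM (median 1.32) and 4.15 to 5.86 CPM (median 4.61), a log2 fold change of 1.90 (SE 0.19, adjusted p = 1.91e-09 from edgeR). For both, the ranges were separate. Hoxc4, the most 3′ gene of the cluster, was at 4.47 to 5.07 CPM (median 5.02) with DMSO and 10.1 to 14.1 CPM (median 13.8) with AU-15330, a log2 fold change of 1.43 (SE 0.10, adjusted p = 2.51e-12 from edgeR). These groups were separate as well, although replicate 5 with AU-15330 was well below the other 5.
Hoxc13, the gene at the 5′ end, known for hair and nail keratins, went the other way. It was at 11.1 to 20.4 CPM (median 14.9) with DMSO and at 5.35 to 7.02 CPM (median 6.31) with AU-15330. The DMSO libraries fell into 2 sets, replicates 1 to 3 at 17.8 to 20.4 CPM and replicates 4 to 6 at 11.1 to 11.9 CPM. The log2 fold change was −1.29 (SE 0.15, adjusted p = 1.38e-08 from edgeR), and no AU-15330 library reached the lowest DMSO library. It was −1.64 with replicates 1 to 3 alone and −0.87 with replicates 4 to 6 alone, called in both. Hoxc11 and Hoxc12, which separate Hoxc13 from Hoxc10, had no more than 3 counts in a library.

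Of the 5 tested Hoxa genes, 4 rose: Hoxa3, Hoxa5, Hoxa6 and Hoxa7. Hoxa5, needed for lung and cervical development, was at 0.731 to 1.56 CPM (median 1.26) with DMSO and 5.43 to 6.48 CPM (median 5.82) with AU-15330, a log2 fold change of 2.27 (SE 0.18, adjusted p = 1.40e-11 from edgeR). Hoxa6, its neighbour, was at 0.579 to 1.30 CPM (median 1.09) and 4.59 to 6.36 CPM (median 5.02), a log2 fold change of 2.40 (SE 0.20, adjusted p = 4.53e-11 from edgeR). Hoxa3, which shapes thymus and parathyroid, was at 0.0483 to 0.582 CPM (median 0.379) and 1.40 to 2.25 CPM (median 1.85), a log2 fold change of 2.30 (SE 0.29, adjusted p = 1.02e-07 from edgeR). The ranges of these 3 genes were separate. For Hoxa3 the log2 fold change was 3.26 with replicates 1 to 3 alone and 1.69 with replicates 4 to 6 alone, called in both.
Hoxa7, a trunk gene, was at 0.386 to 1.12 CPM (median 0.584) with DMSO and 0.874 to 1.89 CPM (median 1.02) with AU-15330, with overlapping groups. Its log2 fold change of 0.79 (SE 0.28, adjusted p = 0.0123 from edgeR) was not called without replicate 2, whose AU-15330 library was the highest, or with replicates 4 to 6 alone (0.35).

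Within Hoxd, Hoxd10, near the floor with DMSO, had the largest fold change, and of the 4 abundant genes Hoxd8, Hoxd9 and Hoxd4 were called higher and Hoxd3 was not called. Hoxd10, a lumbar and hindlimb gene, was at 0.224 to 0.676 CPM (median 0.425) with DMSO and 1.72 to 2.57 CPM (median 1.99) with AU-15330, a log2 fold change of 2.28 (SE 0.25, adjusted p = 7.01e-09 from edgeR). Hoxd8 was at 43.1 to 56.0 CPM (median 52.6) and 73.2 to 84.7 CPM (median 78.1), a log2 fold change of 0.62 (SE 0.07, adjusted p = 1.81e-08 from edgeR). Both genes had separate groups. Hoxd9 was at 54.3 to 78.1 CPM (median 68.1) and 74.5 to 85.4 CPM (median 77.7), a log2 fold change of 0.25 (SE 0.08, adjusted p = 0.00531 from edgeR). Hoxd4, a hindbrain and cervical gene, was at 22.9 to 32.3 CPM (median 27.3) and 24.9 to 41.6 CPM (median 37.8), a log2 fold change of 0.38 (SE 0.13, adjusted p = 0.00829 from edgeR). For these 2 genes the groups overlapped, although the AU-15330 library was higher in 6 of 6 same-numbered pairs, and with replicates 1 to 3 alone neither was called (0.20 for Hoxd9 and 0.35 for Hoxd4). Hoxd3, a neck gene, was at 31.8 to 44.7 CPM (median 34.2) and 26.7 to 49.3 CPM (median 39.6), a log2 difference of 0.09 (SE 0.15, adjusted p = 0.582 from edgeR).

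**Figure D3:**
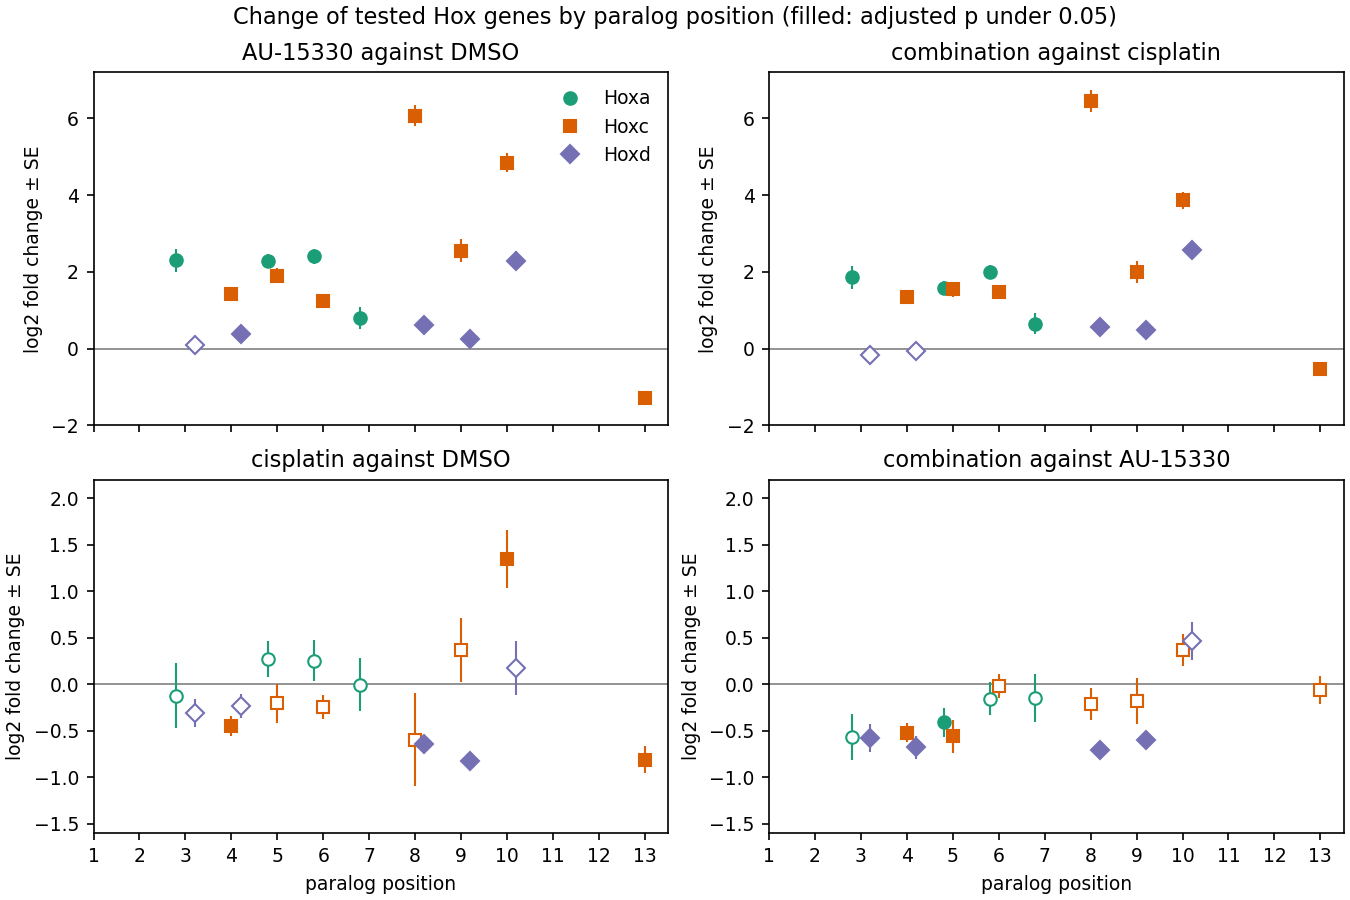
Log2 fold change (points) ± SE (bars) of 16 tested Hox genes against paralog position in 4 comparisons, with Hoxa as circles, Hoxc as squares and Hoxd as diamonds, filled where the adjusted p was under 0.05, on y axes that differ between the upper and lower panels. In the upper panels, which compare libraries with and without AU-15330, Hoxc8 is highest (6.07 and 6.45) and Hoxc13 is below 0; in the lower panels, which compare libraries with and without cisplatin, called genes are below 0 except Hoxc10.

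With AU-15330 the order of levels per kilobase changed below its first 2 places. Hoxd9 at 36.8 CPM per kilobase (34.9 to 40.0) and Hoxd8 at 28.5 (26.7 to 30.9) were still highest and did not overlap. Hoxc6 at 21.1 (17.01 to 24.5) came next and lay above Hoxd4 at 14.04 (9.74 to 16.2) and Hoxd3 at 13.3 (8.995 to 16.6). Hoxc4 at 6.61 (5.12 to 7.09), Hoxc8 at 6.55 (5.90 to 7.38), Hoxa6 at 6.04 (5.25 to 7.28) and Hoxc10 at 4.66 (3.63 to 5.82) followed, each overlapping the next. Hoxc8 was 17th in this order with DMSO and 7th with AU-15330, Hoxc10 went from 15th to 9th, and Hoxc13 from 6th to 11th.

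The markers of cell identity moved in the same libraries. Counts of called markers stand beside 36.2% higher and 37.2% lower over all tested genes with AU-15330, and 26% and 25.7% with cisplatin. The summed level of 10 epithelial and mesothelial markers was 3515 to 5313 CPM with DMSO, 1018 to 1150 with AU-15330, 4194 to 4869 with cisplatin and 1223 to 1404 with the combination. All 9 tested markers were lower with AU-15330, among them Krt19 (log2 fold change −7.99), Upk3b (−6.50) and Krt7 (−5.12), and 7 of 9 were higher with cisplatin, led by Lrrn4 (2.21), Cdh1 (2.13) and Upk3b (2.12). Of 8 Mullerian duct markers, 4 were tested, of which 3 were lower with AU-15330 (Amhr2 −8.19, Lhx1 −4.88 and Ovgp1 −1.42) and 4 were not called with cisplatin. Their sum was 163 to 474 CPM with DMSO, 9.25 to 20.2 with AU-15330, 296 to 391 with cisplatin and 19.2 to 39.4 with the combination, while Pax2 and Emx2 had at most 2 counts.
Of the other cell types, set beside the same shares of all tested genes, fibroblast markers had the highest sums. Of 6 immune markers 1 was tested, Cd68, higher with AU-15330 (1.56) and not called with cisplatin, with list sums of 6.46 to 18.965 CPM with DMSO, 16.7 to 53.0 with AU-15330, 6.85 to 13.2 with cisplatin and 23.96 to 42.4 with the combination. Of 5 endothelial markers 2 were tested, Pecam1 (−2.95) and Vwf (−1.17), both lower with AU-15330 and higher with cisplatin (1.49 and 1.58), with list sums of 3.76 to 5.60, 0.522 to 1.14, 10.8 to 15.4 and 0.614 to 1.95 CPM in the same order of groups. Of 6 fibroblast markers 4 were tested. With AU-15330, 3 of them were higher and 1 lower (Col1a1 −2.38, Dcn 0.90, Pdgfra 0.90), and with cisplatin 3 were higher and 1 lower (Dcn 2.42, Pdgfra 1.33, Col1a1 −0.72). The fibroblast sums were 227 to 641, 111 to 174, 365 to 449 and 194 to 294 CPM, and Thy1 and Col1a2 had at most 5 counts. The part of these markers in the Hox results was not tested, and in bulk RNA fewer cells of a type and less RNA per cell cannot be told apart.

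Cisplatin alone, the treatment that the study used to induce senescence, was compared with DMSO next. Summed Hoxd levels were lower in all 6 libraries, and summed Hoxc and Hoxa levels overlapped those with DMSO. Of 17 tested Hox genes, 4 were lower (25.7% of all tested genes were), 1 was higher (26% of all were) and 12 were not called, with 51.7% of all called in either direction. With the filter on DMSO libraries alone, 4 of 11 were lower (25.4% of all were, and 24.2% were higher) and 7 were not called. The median log2 fold change was −0.23 over the 17 genes, against −0.0041 over all genes, and −0.28 over the 11, against −0.0092. The summed Hoxd level was 119 to 130 CPM (median 124), below every DMSO library, Hoxc was 21.6 to 32.1 CPM (median 27.4), and Hoxa was 3.63 to 6.40 CPM (median 5.17).
The 2 most abundant genes and Hoxc13 and Hoxc4 fell, each with separate groups. Hoxd9 was at 33.6 to 39.8 CPM (median 37.9), a log2 fold change of −0.83 (SE 0.08, adjusted p = 2.08e-09 from edgeR). Hoxd8 was at 30.0 to 37.6 CPM (median 31.0), a log2 fold change of −0.65 (SE 0.07, adjusted p = 3.92e-08 from edgeR). All 6 cisplatin libraries were below all 6 DMSO libraries for both genes. Hoxc13 was at 7.33 to 10.5 CPM (median 8.84), a log2 fold change of −0.81 (SE 0.14, adjusted p = 3.41e-05 from edgeR), and Hoxc4 at 3.23 to 4.16 CPM (median 3.49), a log2 fold change of −0.45 (SE 0.11, adjusted p = 0.00117 from edgeR). For Hoxc13, whose DMSO libraries fell into 2 sets, the value was −1.20 with replicates 1 to 3 alone and −0.35 with replicates 4 to 6 alone, called in both, and the Hoxc4 call was lost with replicates 4 to 6 alone (−0.40).
Hoxc10 was the gene called higher, at 0.637 to 1.07 CPM (median 0.720), a log2 fold change of 1.35 (SE 0.31, adjusted p = 0.000707 from edgeR). Its groups overlapped because replicate 1 with DMSO, at 0.866 CPM, lay above 4 of the cisplatin libraries, the other DMSO libraries being at or below 0.323 CPM. It was called with replicates 4 to 6 alone (2.13) and not with replicates 1 to 3 alone (0.69).

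The other genes that rose from near the floor with AU-15330 were not called with cisplatin. Hoxc8 was at 0 to 0.227 CPM (median 0.124, 16 counts over the 6 libraries), a log2 difference of −0.60 (SE 0.50, adjusted p = 0.330 from edgeR). This difference rests on at most 5 counts in a cisplatin library and at most 8 in a DMSO library. Hoxc9 was at 0.271 to 0.782 CPM (median 0.677), a log2 difference of 0.37 (SE 0.34, adjusted p = 0.379 from edgeR), and Hoxd10 at 0.124 to 0.728 CPM (median 0.474), a log2 difference of 0.18 (SE 0.29, adjusted p = 0.636 from edgeR). For all 3 genes the cisplatin and DMSO libraries overlapped. Hoxa5 was at 0.716 to 2.08 CPM (median 1.49, log2 difference 0.27), Hoxa6 at 0.818 to 1.65 CPM (median 1.15, 0.25), Hoxa3 at 0.224 to 0.454 CPM (median 0.336, −0.12) and Hoxa7 at 0.360 to 0.896 CPM (median 0.703, −0.0041). Hoxc6 was at 8.81 to 14.96 CPM (median 12.5, log2 difference −0.25), Hoxc5 at 0.542 to 1.44 CPM (median 1.20, −0.21), Hoxd3 at 23.3 to 36.2 CPM (median 29.8, −0.31) and Hoxd4 at 18.2 to 28.9 CPM (median 22.8, −0.23). None of these 8 was called in the main analysis, and all overlapped DMSO. Without replicate 1, Hoxd3 (−0.30, adjusted p = 0.0316 from edgeR) and Hoxd4 (−0.23, adjusted p = 0.0375 from edgeR) were called lower and Hoxa5 (0.43) was called higher. With the number set as a term, Hoxd3 (−0.31) and Hoxd4 (−0.24) were also called lower, as was Hoxd3 with replicates 4 to 6 alone (−0.32).

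**Figure D4:**
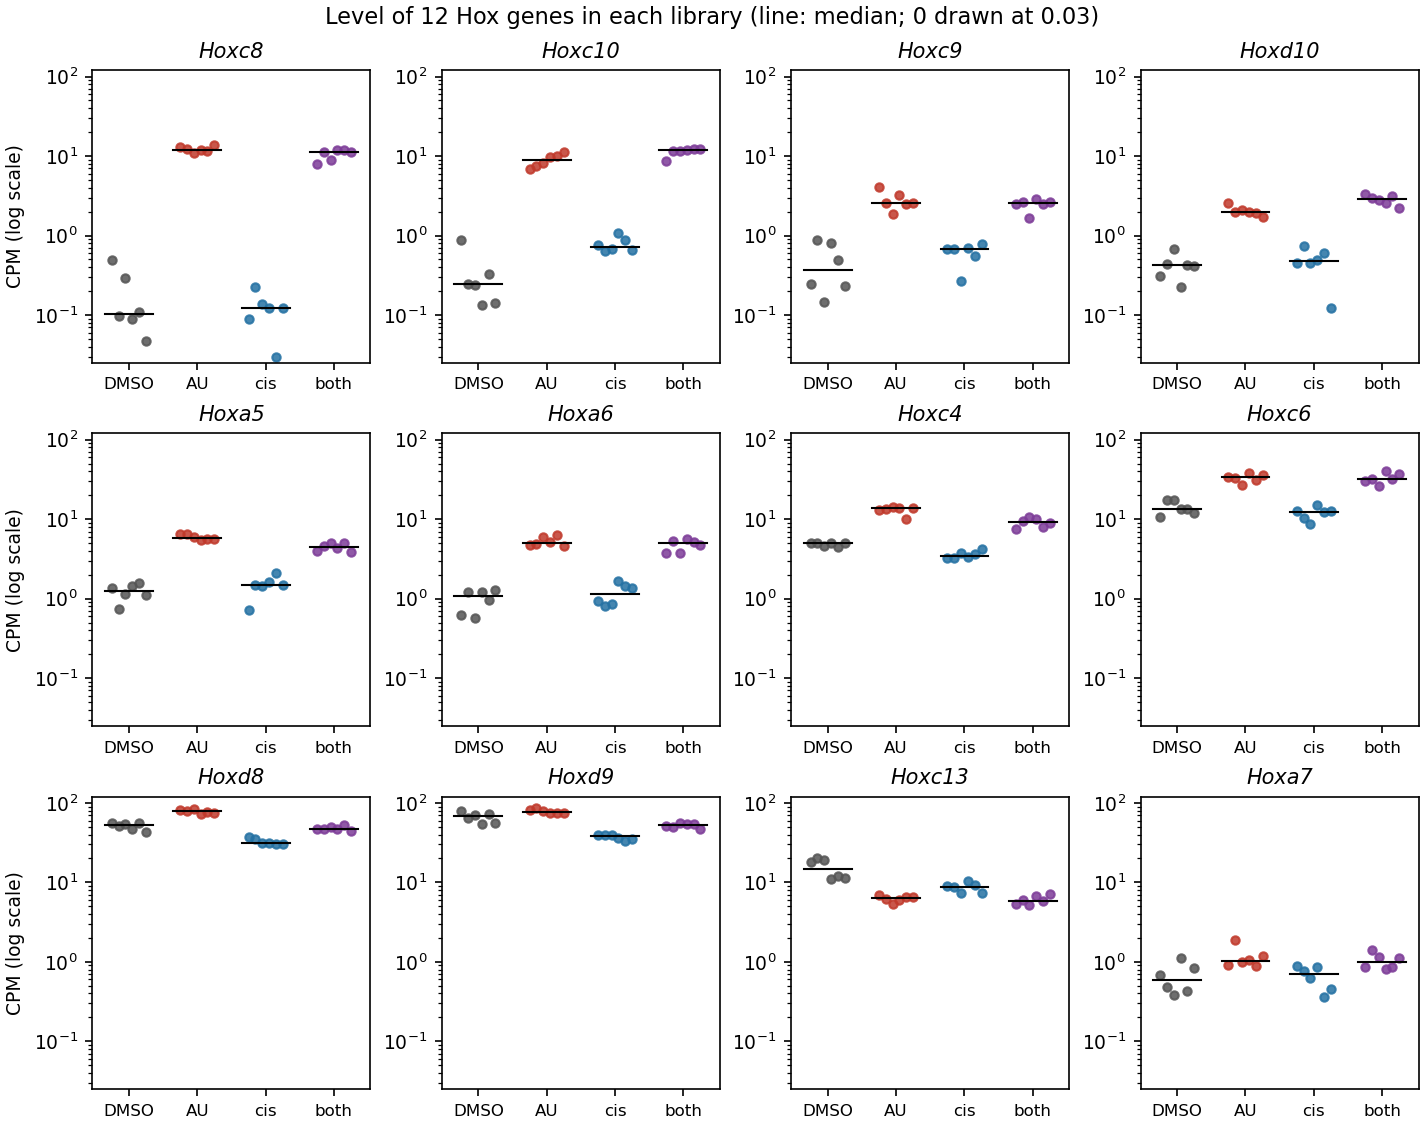
CPM on a log scale of 12 Hox genes in each library (points, in replicate order within a treatment), with the median of 6 libraries as a line, for DMSO, AU-15330 (AU), cisplatin (cis) and the combination (both), and with a value of 0 drawn at 0.03. Hoxc8, Hoxc10, Hoxc9, Hoxd10, Hoxa5 and Hoxa6 differ between libraries with and without AU-15330, Hoxd8 and Hoxd9 are lowest with cisplatin, Hoxc13 is highest with DMSO, and Hoxa7 overlaps between groups.

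Whether AU-15330 acted on Hox genes in cisplatin-treated cells was asked by setting the combination against cisplatin. Of 17 tested genes, 13 were higher (35.4% of all tested genes were), 1 was lower (32.7% of all were) and 3 were not called (68.1% of all were called in either direction), with a median log2 fold change of 1.46 against 0.0389 over all genes. Groups did not overlap for 13 (50.2% of all tested genes). Among the 13 were Hoxc8, Hoxc9, Hoxc10, Hoxd10 and Hoxa3, which the filter let in through groups other than DMSO. With the filter on DMSO libraries alone, 7 of 11 were higher (35.6% of all) and 1 was lower (32.2% of all), with a median of 0.55. The summed Hoxc level was 64.6 to 87.5 CPM (median 76.5), Hoxa was 11.7 to 15.05 (median 13.8) and Hoxd was 135 to 162 (median 153), all above every cisplatin library.
Hoxc8 was at 8.05 to 12 CPM (median 11.2), a log2 fold change of 6.45 (SE 0.28, adjusted p = 1.13e-16 from edgeR) over cisplatin. Hoxc10 was at 8.69 to 12.4 CPM (median 11.9), a log2 fold change of 3.86 (SE 0.21, adjusted p = 9.87e-15 from edgeR). Hoxc9 was at 1.68 to 2.91 CPM (median 2.56), a log2 fold change of 2.00 (SE 0.28, adjusted p = 7.09e-07 from edgeR). All 3 genes were higher in each combination library than in any cisplatin library. Hoxd10 was at 2.23 to 3.33 CPM (median 2.88), a log2 fold change of 2.57 (SE 0.23, adjusted p = 2.87e-10 from edgeR). Hoxa6 was at 3.78 to 5.64 CPM (median 4.98, log2 fold change 2.00), Hoxa3 at 0.815 to 1.53 CPM (median 1.29, 1.85) and Hoxa5 at 3.81 to 5.03 CPM (median 4.48, 1.59). These 4 genes, too, had separate groups.
Hoxc6 at 26.3 to 39.8 CPM (median 32.3) and Hoxc4 at 7.57 to 10.8 CPM (median 9.29) rose by log2 fold changes of 1.46 and 1.35 (SE 0.13 and 0.11), and Hoxc5 at 2.55 to 4.07 CPM (median 3.28) by 1.55 (SE 0.20). Of the abundant Hoxd genes, Hoxd8 at 44.7 to 52.0 CPM (median 46.6) rose by 0.55 (SE 0.07) and Hoxd9 at 47.5 to 55.8 CPM (median 52.5) by 0.48 (SE 0.08). Each of these 5 had separate groups. Hoxd4 at 16.7 to 24.6 CPM (median 23.7) and Hoxd3 at 16.6 to 34.3 CPM (median 26.4) were not called, with log2 differences of −0.07 and −0.17. Hoxc13 fell further, to 5.17 to 7.11 CPM (median 5.84), a log2 fold change of −0.54 (SE 0.15, adjusted p = 0.00232 from edgeR) with separate groups. Hoxa7 at 0.818 to 1.40 CPM (median 0.990) overlapped cisplatin, and its call (log2 fold change 0.65, adjusted p = 0.0395 from edgeR) was lost without replicates 2, 3, 5 or 6 (log2 fold change 0.53 to 0.59), with either set of numbers alone (0.53 and 0.70), with DESeq2 (0.62) and with no filter (0.61).

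Setting the combination against AU-15330 gave the effect of cisplatin in cells that also had AU-15330. Of 17 tested genes, 7 were lower (19.5% of all tested genes were) and 0 were higher (22.2% of all were) with edgeR, while 41.7% of all were called in either direction. At an unadjusted p under 0.05, 2 were higher, Hoxd10 (log2 difference 0.47, adjusted p = 0.0638) and Hoxc10 (0.37, adjusted p = 0.0831), and DESeq2 and the fit with the number set as a term called 2 higher, these same genes. In the other direction Hoxa3 (−0.57, adjusted p = 0.0680 from edgeR, lower in 6 of 6 same-numbered pairs) was not called, but was with DESeq2 (−0.58) and without replicate 1 (−0.67) or 3 (−0.60), and with replicates 4 to 6 alone (−0.70). With the filter on DMSO libraries alone, 7 of 11 were lower (21.1% of all were, and 22.5% were higher) and 4 were not called. The median log2 fold change was −0.24 over the 17 genes, against 0.0062 over all genes, and −0.52 over the 11, against −0.0066. The lower genes were the 4 abundant Hoxd genes and 3 genes of positions 4 and 5. Hoxd8 fell by 0.71 (SE 0.07), Hoxd4 by 0.68 (SE 0.13), Hoxd9 by 0.60 (SE 0.08) and Hoxd3 by 0.58 (SE 0.15) on the log2 scale, with adjusted p of 1.57e-08, 0.000103, 9.35e-07 and 0.00317 from edgeR. Groups were separate for Hoxd8, Hoxd4 and Hoxd9, and overlapped for Hoxd3.
Hoxc4 fell by 0.52 (SE 0.10, adjusted p = 0.000141 from edgeR) with overlapping groups, since the low AU-15330 library of replicate 5 lay within the combination's range. Hoxc5 fell by 0.56 (SE 0.18, adjusted p = 0.0125 from edgeR) and Hoxa5 by 0.41 (SE 0.16, adjusted p = 0.0397 from edgeR). The Hoxc5 call was lost without replicate 2 (−0.45) or 6 (−0.50), and the Hoxa5 call without replicate 2, 3, 4 or 6 (−0.44 to −0.40) and with either set of numbers alone (−0.51 and −0.37). Hoxc8, Hoxc9, Hoxc6, Hoxa6 and Hoxc13 overlapped between the combination and AU-15330, with log2 differences of −0.21, −0.18, −0.02, −0.16 and −0.06. This comparison shares its combination libraries with the one against cisplatin and its AU-15330 libraries with the one against DMSO, so these are not independent.

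The interaction asked whether the response to AU-15330 differed between cisplatin and DMSO. It was called for 3 of 17 Hox genes, 1 positive (17.9% of all tested genes were) and 2 negative (15.8% of all were), where 33.7% of all were called in either direction, with a median of −0.15 against 0.0065 over all genes. Hoxc13 had a positive term of 0.75 (SE 0.21, adjusted p = 0.00632 from edgeR): the AU-15330 response was −1.29 on the log2 scale in vehicle-treated cells and −0.54 in cisplatin-treated cells. The same sign was seen in 6 of 6 replicate numbers, and the call held without any one replicate. With replicates 1 to 3 alone the term was 0.99 and called, and with replicates 4 to 6 alone, which leave out the 3 high DMSO libraries, it was 0.37 and not called.
Hoxc10 had a negative term of −0.98 (SE 0.35, adjusted p = 0.0336 from edgeR), with an AU-15330 response of 4.84 without and 3.86 with cisplatin, and Hoxa5 a term of −0.68 (SE 0.25, adjusted p = 0.0360 from edgeR), with responses of 2.27 and 1.59. Both calls were lost without replicate 2, 3, 4, 5 or 6, with terms of −1.02 to −0.70 for Hoxc10 and −0.73 to −0.55 for Hoxa5. Without replicate 1, whose DMSO library was the high one for Hoxc10, the terms were −1.51 for Hoxc10 and −0.82 for Hoxa5, and both were called. With replicates 1 to 3 alone neither was called (−0.23 for Hoxc10 and −0.69 for Hoxa5), and with replicates 4 to 6 alone both were (the Hoxc10 term being −1.90). The Hoxd4 term was −0.45 (SE 0.18, adjusted p = 0.0535 from edgeR), with the same sign in 6 of 6 replicate numbers. It was not called in the main analysis, but was with DESeq2 (−0.48), its size factors (−0.48), total counts (−0.51) and the filter on DMSO libraries alone (−0.48), and without replicate 1 (−0.50) or 3 (−0.56), with the number set as a term (−0.44) and with replicates 4 to 6 alone (−0.57). For Hoxc8 the term was 0.39 with an SE of 0.52, so that a difference of that size was not detectable on the few counts without AU-15330.

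Genes that work with or regulate Hox genes were taken as lists, whose counts stand beside 36.2% higher and 37.2% lower over all tested genes with AU-15330, and 26% and 25.7% with cisplatin. Of 9 TALE cofactors, which bind DNA with Hox proteins, 8 were tested. With AU-15330, 2 were higher and 4 lower (median log2 fold change −0.23), led by Meis1 (−1.04, 71.3 ± 8.33 to 34.7 ± 2.78 CPM, mean ± SD, n = 6) and Pbx4 (−0.67). With cisplatin 2 were higher and 3 lower (median −0.06), among them Pbx4 (0.78) and Meis3 (0.63).
Of 9 genes listed with the MLL-menin complex, which marks active Hox chromatin, 2 were higher and 5 lower with AU-15330 (36.2% and 37.2% of all, median −0.14). The list counts Dot1l, a histone methyltransferase that is not a subunit of the complex. Psip1, the chromatin tether of the complex, rose by 1.41, and Dot1l and Men1, which encodes menin, were at −0.96 and −0.69. With cisplatin 2 were lower, Rbbp5 (−0.28) and Ash2l (−0.18), and 7 were not called, with a median of −1.87e-05.
Of 19 Polycomb genes, all tested and counting the opposing demethylases Kdm6a and Kdm6b, 8 were higher and 6 lower with AU-15330 (36.2% and 37.2% of all, median 0.13). Cbx2, a reader subunit, was at −1.66, Bmi1, a core subunit, at 1.40, and Cbx6, another reader, at 1.06. With cisplatin 2 were higher and 7 lower (median −0.09), with Ezh2, the H3K27 methyltransferase, at 0.67 and Kdm6b at −0.56. Of 18 genes of the Cdx and retinoic acid pathway, 9 were tested. Of these 2 were higher and 3 lower with AU-15330 (median −0.12), led by Cyp26b1, which degrades retinoic acid (2.57), Aldh1a1, which makes it (−1.75), and the receptor Rarg (1.28). With cisplatin 5 were higher and 4 lower (median 0.73), led by Stra6 (5.17), Aldh1a1 (1.38) and Crabp2 (1.362). Cdx1, Cdx2 and Cdx4, which activate Hox genes in the embryo, had at most 4 counts.

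Other transcripts of the clusters were mostly too low to test. Of 20 noncoding and Evx genes found in the table, 3 were tested. With AU-15330, 2 were lower (37.2% of all tested genes were) and 1 was not called (median −1.02): Halr1, a noncoding gene 41.9 kb from the Hoxa cluster, at −2.94 (4.62 CPM with DMSO and 0.602 CPM with AU-15330), and Hotairm1, a noncoding gene of the Hoxa cluster, at −1.02 (1.76 and 0.866 CPM). The gene not called, Hoxd3os1, was at 0.60 with an adjusted p of 0.0586 from edgeR. With cisplatin Halr1 was higher (1.00; 26% of all tested genes were higher), 2 were not called and the list's median was −0.20. Hotair and Hottip had at most 1 count.
Of 18 flanking genes in the table, which lie outside the clusters, 15 were tested. With AU-15330, 8 were higher (36.2% of all tested genes were) and 2 lower (37.2% of all were) with a median of 0.22, led by Skap2 (1.12), Snx10 (0.79) and Cbx5 (0.66), at distances of 143.0, 564.9 and 154.7 kb from their cluster. With cisplatin 3 were higher (26% of all) and 6 lower (25.7% of all), with a median of −0.15, led by Snx10 (0.58), Atp5g2 (−0.56) and Hnrnpa3 (−0.29). No test compared the Hox genes with their flanks.

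The source of the counts limits some members. Whether the authors' counting used strand was not stated. Exons of Hoxa3 overlap 466 bases of antisense genes in the table, so its reads could include antisense transcripts without it. In transcripts matched to RefSeq no exon of a tested Hox gene overlaps another gene of its strand, but over all GENCODE transcripts Hoxc5 and Hoxc10 share 166 bases and Hoxd3 and Hoxd4 share 388, where the counting could have split or dropped reads.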

How the data were processed

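RNA of 24 libraries (4 groups of 6) was sequenced over 2 lanes. The deposited values are raw counts per gene symbol and lane, made by the authors, whose processing notes name STAR 2.7.1a, DESeq2 1.36.0 and mm10. The counting tool and its strand setting are not given in the sources used here. All 48 count columns were mapped to a library by their labels (0 were not), and lanes were summed. Columns were named by drug abbreviations that the treatment labels explain.

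Counts of 25229 symbols were filtered with filterByExpr, scaled by TMM and fitted in 1 model of 4 groups (20 residual degrees of freedom) with the quasi-likelihood test of edgeR 4.0.16 in R 4.3.3. Benjamini-Hochberg adjustment ran over 12941 genes with a threshold of 0.05, and tests were two-sided. SE was taken as the fold change over the square root of F. Totals of 17592588 to 25260009 counts make 3 counts equal to 0.120 to 0.186 CPM, for counting error only. Members are all Hoxa to Hoxd genes. Values were given singly for members called in at least 1 comparison with a group mean of at least 1 CPM (up to 25 genes; 16 met this). A few genes of the family and the lists are counted but not reported here. For other lists, up to 3 called genes of the largest change with a mean of at least 1 CPM in a group were named. Hoxa9, Hoxa10, Hoxa11, Hoxa13 and other untested genes were named after their values were seen. Members and lists were chosen with earlier results of these data known.

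Exon lengths came from GENCODE vM21 (GRCm38), and promoters from RefSeq, with Python 3.11.15, pandas 2.3.3 and matplotlib 3.10.9. The code was tested on simulated data. Alternatives were DESeq2 1.42.0, its size factors, total counts, no low-count filter, a replicate block, leaving out each replicate number, and, added after the data were seen, a filter on DMSO libraries, replicates 1 to 3 or 4 to 6 alone, and that set as a term.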

Additional observations from a re-analysis of the deposited data

Results flagged for a closer look

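Of 64 groups of 6 libraries, 5 had a library farther from the rest than Dixon's 95% critical value of 0.625, where chance gives about 1 in 20, or 3.2. Each value is the gap to the nearest library over the range of the group. Hoxc10 stood apart in DMSO replicate 1, the highest at 0.866 CPM against at most 0.323 CPM (0.742), and in combination replicate 1, the lowest at 8.69 CPM against at least 11.6 CPM (0.799). Hoxc9 did so in combination replicate 3, at 1.68 CPM against at least 2.47 CPM (0.640). Hoxc4 did so in AU-15330 replicate 5, at 10.1 CPM against at least 12.97 CPM (0.720). Hoxa7 did so in AU-15330 replicate 2, at 1.89 CPM against at most 1.20 CPM (0.680).

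The response to AU-15330 differed between cisplatin- and DMSO-treated cells by edgeR's interaction term for 3 of 17 tested Hox genes, 1 positive and 2 negative, where 33.7% of all tested genes were called (17.9% positive and 15.8% negative). The log2 terms were 0.755 for Hoxc13, −0.982 for Hoxc10 and −0.683 for Hoxa5, and those of Hoxc10 and Hoxa5 were not called when any one of replicates 2 to 6 was left out. That of Hoxc13 was not called with replicates 4 to 6 alone (0.37).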

How the results depend on the processing

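Over 80 values of named Hox genes per setting, no called value changed sign or moved by over 1.5 times as a fold change on the linear scale under the alternatives run (50 values with the filter on DMSO libraries), except that with replicates 1 to 3 alone and 4 to 6 alone 5 called values each moved further, of Hoxc8, Hoxc10 and Hoxa3 with AU-15330 and of Hoxc10 with cisplatin and in the interaction. That filter gave 8 Hox genes higher with AU-15330 (14 in the main analysis), 0 higher with cisplatin (1) and 7 higher in the combination against cisplatin (13), since 11 and not 17 members enter. DESeq2 gave 2 higher in the combination against AU-15330 (0) and 2 positive interactions (1), and no low-count filter gave 1 and 4. The replicate block gave 2 lower in the combination against cisplatin (1, the block adding Hoxd3) and 1 higher against AU-15330 (0), and 6 lower with cisplatin (4, the block adding Hoxd3 and Hoxd4), and it called the Hoxd4 interaction (adjusted p = 0.00262 from edgeR). Replicates 1 to 3 alone gave 0 higher with cisplatin (1) and 0 negative interactions (2), replicates 4 to 6 alone gave 0 positive interactions (1), and the number set as a term gave 2 higher against AU-15330 (0). The causes were not tested, and each set alone has 3 libraries a group. Leaving out each replicate number gave 13 to 14 higher and 1 lower with AU-15330, 1 to 2 higher and 4 to 6 lower with cisplatin, 12 to 13 higher and 1 lower in the combination against cisplatin, 0 to 1 higher and 5 to 8 lower against AU-15330, and 1 positive and 0 to 3 negative interactions.

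Values that changed sign, none of them called and not all of them near 0, were as follows. For Hoxa7 with cisplatin, DESeq2 size factors gave 0.0117, total counts 0.0676, DESeq2 0.0107 and the replicate block 0.000203, and leaving out replicates gave −0.127 to 0.166. For Hoxd4 in the combination against cisplatin, total counts gave 0.00106. Leaving out replicates gave −0.083 to 0.765 for the Hoxc8 interaction, −0.391 to 0.0342 for Hoxa3 with cisplatin and −0.338 to 0.0701 for the Hoxa7 interaction. With replicates 1 to 3 alone, Hoxa3 (0.626) and Hoxa7 (0.582) with cisplatin changed sign. With replicates 4 to 6 alone, so did Hoxc8 (0.0152), Hoxc5 (0.209) and Hoxc6 (0.0176) with cisplatin, Hoxc6 (0.0082) and Hoxc13 (0.0139) in the combination against AU-15330, and the interactions of Hoxc8 (−0.141), Hoxc6 (−0.00941) and Hoxa7 (0.357). Total counts moved the median of all genes to 0.126 with AU-15330 and 0.104 in the combination against cisplatin. They also moved the calls with cisplatin to 3977 higher and 2529 lower (3360 and 3329 with TMM), with AU-15330 to 5618 and 3973 (4681 and 4816), and of the interaction to 1791 positive and 2506 negative (2313 and 2048).

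The labels say nothing of what a replicate number shares. Deviations of same-numbered libraries had a mean correlation of 0.145 (−0.133 to 0.483, 23 of 36 pairs over 0.1) against −0.0269 for 180 other pairs (35 over 0.1), and 10 of 24 libraries were closest to their own number. Since not every pair was over 0.1, numbers were not taken as pairs. Depth limits the 22 untested members and the fold changes of Hoxc8, Hoxc9, Hoxc10 and Hoxd10, whose DMSO and cisplatin levels rest on few counts.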
